A study of Mus musculus with 16 samples.

Results

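Chit1, Chil1, Chil3 and Chil5 were followed as the chitinases and chitinase-like genes of this dataset. Their rows were found by symbol, and all 4 of 4 were present among the 32286 genes of each of the 16 single-cell RNA libraries. They were chosen from measured values, because with IACS-70654 Chit1 was lower in neutrophil precursors and Chil3 was higher in granulocyte-monocyte progenitors (GMPs) than with vehicle. The values of that contrast in those 2 cell classes are therefore given as a description, with no test, for all 4 genes. IACS-70654 is an inhibitor of the bromodomain of CBP and P300, acetyltransferases of histone H3, and 2208L is a Trp53-null mammary tumor of BALB/c mice that is passaged by transplantation. The 16 libraries came from 2208L tumors given vehicle, IACS-70654, anti-PD1 or both agents (1 library each), and from bone marrow (BM). BM was taken from WT mice without a tumor (labelled ctrl), from 2208L-bearing mice given vehicle and from 2208L-bearing mice given IACS-70654, with 2 libraries per group in each of 2 sorts, CD45+Ter119- cells and lineage-negative c-Kit+ cells. For the vehicle and IACS-70654 groups the series record gives a pool of 3 mice per group, treated for 7 days, whereas the study's text gives another length for BM and a pool of 3 mice per sample. If the 2 libraries of a BM group were parts of 1 pool, p-values measure only the spread between these libraries, which may be technical. The study's methods give young adult mice at tumor transplantation.

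Chitinases of this family, the glycosyl hydrolase 18 family, cut the sugar polymer chitin, which mammals do not make but meet in fungi, insects and worms. Chit1 (chitotriosidase) is an active enzyme of this family. Chil1 (also BRP-39, the mouse counterpart of YKL-40), Chil3 (Ym1) and Chil5 are chitinase-like proteins, which keep the fold of the enzymes but lack activity. Chil1 is a secreted glycoprotein known from neutrophil granules and inflamed tissue, and Chil3 is made in large amounts by developing neutrophils and by alternatively activated macrophages.

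The feature that separates the enzyme from its relatives lies in a short coding stretch, which is shown for that reason. In GENCODE vM21 (GRCm38, the build called mm10 in the submitters' notes), the stretch of Chit1 (ENSMUSG00000026450, chr1:134111242-134151540, plus strand) lies in exon 6 of 12 at chr1:134145325-134145375. That of Chil1 (ENSMUSG00000064246, chr1:134182176-134190181, plus strand) lies in exon 5 of 10 at chr1:134185222-134185272. That of Chil3 (ENSMUSG00000040809, chr3:106147554-106167564, minus strand) lies in exon 5 of 11 at chr3:106160410-106160460. That of Chil5 (ENSMUSG00000043873, chr3:106016919-106032814, minus strand) lies in exon 5 of 11 at chr3:106024109-106024159. The sequences are written 5' to 3' on the coding strand, and the 8 codons of the active-site motif are in capitals.
Chit1: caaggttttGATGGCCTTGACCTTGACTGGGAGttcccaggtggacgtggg
Chil1: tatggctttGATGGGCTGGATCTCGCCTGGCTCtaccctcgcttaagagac
Chil3: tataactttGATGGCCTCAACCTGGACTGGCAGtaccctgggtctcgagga
Chil5: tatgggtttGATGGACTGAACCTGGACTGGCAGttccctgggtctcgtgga
The last codon in capitals is the site of the catalytic glutamate. It encodes glutamate in Chit1 and another residue in Chil1, Chil3 and Chil5. The genes form 2 pairs by position, with 30635 bases between Chit1 and Chil1 and 114739 bases between Chil5 and Chil3. Chil4, a paralog 33925 bases from Chil3, shares 92.4% of 1539 transcript bases with it and 79.7% of the last 300. Chil4 itself was counted with 23 UMIs in all CD45+ cells and 0 in c-Kit+ and tumor libraries. Whether some reads counted as Chil3 came from Chil4 was not tested. The antisense gene Gm42722 overlaps Chil5 over 621 bases at its 3' end, and it was counted separately with 92 UMIs in all CD45+ cells.

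After filtering, 31191 CD45+ cells, 28155 c-Kit+ cells and 13830 tumor cells and tumor-infiltrating cells were kept, with 27816638 to 54510172, 27427163 to 68415534 and 15590289 to 43594797 unique molecular identifiers (UMIs, counted RNA molecules) per library. Over whole libraries Ptprc, which encodes CD45, stood at 799 to 946 CPM (UMI counts scaled to the same total in each sum of cells) in the CD45+ sort, and Kit at 99.6 to 154 CPM in the c-Kit+ sort against 6.74 to 19.4 CPM in the CD45+ sort. Cell classes were rebuilt here by clustering and named from marker genes, so each name means cells like that type, and 407, 398 and 180 cells of the 3 sorts stayed unnamed. Libraries of 1 sort shared 0 cell barcodes, and pairs from different sorts shared 0 to 17. The cells carried CellPlex tags, so libraries of 1 sort may be parts of 1 cell capture split by tag, which was not tested. In that case the spread between them would hold no variation between captures. Over genes, replicate libraries of 1 BM group differed by 1.09 to 2.92 times the counting variance. This was computed in mature neutrophils and neutrophil precursors of CD45+ BM and in GMPs and monocyte progenitors of c-Kit+ BM. Neutrophil precursors had the highest values (2.92 in WT, 2.13 with vehicle and 1.42 with IACS-70654). The other classes lay close to counting noise, at 1.09 to 1.28. The replicates of a group were kept as 2 libraries. The UMI sums of a class, written as CPM, are compared below for 1 gene at a time.

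In CD45+ BM, Chit1 and Chil3 had their highest mean level over the 6 libraries in neutrophil precursors, and Chil1 and Chil5 in immature neutrophils. Neutrophil precursors were built from azurophil-high cells, which express the genes of the first granules (Mpo, Elane), and from cycling cells. They precede immature neutrophils, led by genes of the specific granules (Ltf, Camp), and mature neutrophils. Chit1 was found mainly in the precursors. With vehicle its level was 13.7 and 9.53 CPM (136 and 117 UMIs) in the precursors, 0.368 and 0.946 CPM in immature neutrophils and 0.0972 and 0.234 CPM in mature neutrophils. In every other named class of the 6 libraries it had at most 2 UMIs.

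Chil3 was highest in the precursors, at 1408 and 1496 CPM in the vehicle libraries and 2221 and 2048 CPM in WT. It stood at 984 and 1064 CPM in immature neutrophils, 341 and 323 CPM in monocytes and 91.9 and 93.7 CPM in mature neutrophils of the vehicle libraries. The order of precursors, immature neutrophils, monocytes and mature neutrophils was the same in each of the 6 libraries, with no overlap between neighbors. After thinning each cell to 1000 UMIs, 53.2 to 70.5% of precursors, 41.3 to 55% of immature neutrophils and 18 to 25.3% of monocytes had a Chil3 UMI. B cells, which should lack the gene, gave 2.27 to 9.29%. Mature neutrophils gave 6.75 to 7.59%, within the range of B cells, so that share is read as background. The median cell held 2797 to 4202 UMIs in B cells and 2672 to 3584 in mature neutrophils. For every 100 UMIs of a list of neutrophil marker genes, Chil3 had 0.807 to 1.97 UMIs in B cells and 0.967 to 1.47 in immature neutrophils, against 5.45 to 8.87 in monocytes.

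Chil1 and Chil5 were higher in immature and mature neutrophils than in precursors. Chil1 with vehicle stood at 163 and 167 CPM in precursors, 304 and 311 CPM in immature neutrophils and 315 and 324 CPM in mature neutrophils. In WT, precursors were lowest (161 and 134 CPM), then mature (236 and 249 CPM) and immature neutrophils (302 and 285 CPM). The 2 neutrophil classes thus lay close with vehicle, and immature neutrophils were the higher of the 2 in WT. Chil5 with vehicle stood at 40.6 and 42.2 CPM in immature neutrophils, 29.2 and 32.5 CPM in mature neutrophils, 15.8 and 13.8 CPM in plasmacytoid dendritic cells (pDCs, 9 and 9 UMIs) and 4.83 and 4.64 CPM in precursors. The share of thinned cells with a Chil1 UMI was 10.8 to 24.8% in immature neutrophils against 0 to 4.92% in B cells, and that of Chil5 was 2.13 to 5.69% against 0 to 0.343%.

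**Figure D1:**
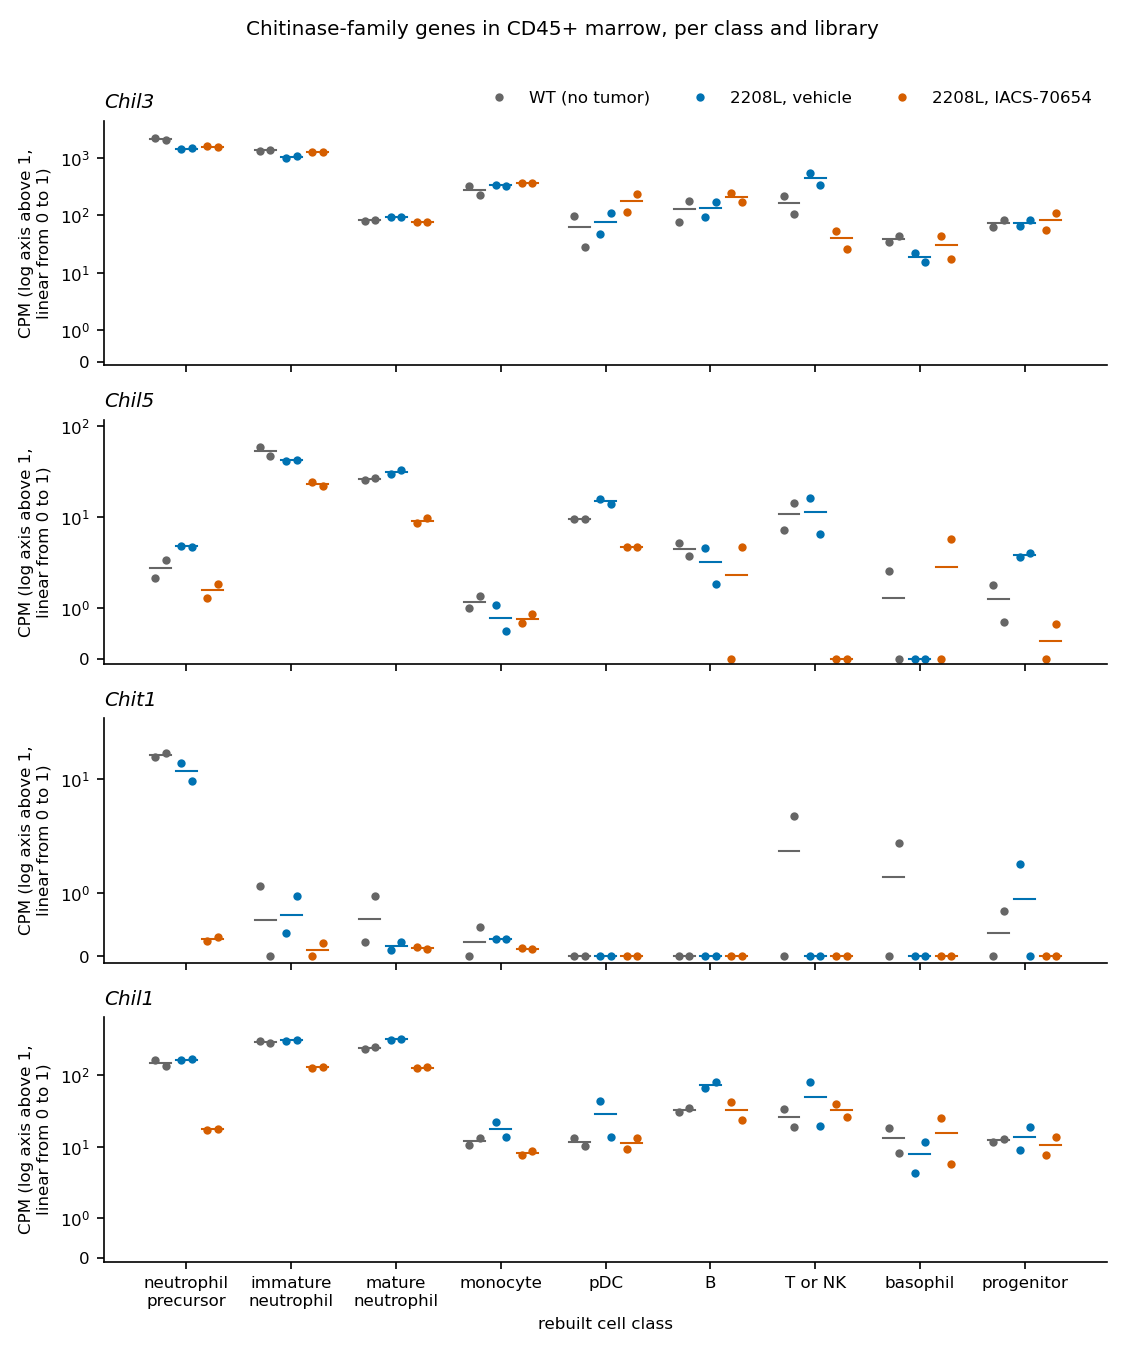
Level of each gene (y axis, CPM, logarithmic above 1 and linear below) in each rebuilt class of CD45+ BM (x axis), with 1 point per library, a line at the mean of the 2 libraries, and colors for WT, vehicle and IACS-70654. Chit1 is highest in precursors of WT and vehicle (its points outside the precursors rest on 0 to 9 UMIs), Chil3 steps down from precursors (1408 and 1496 CPM with vehicle) to mature neutrophils, and the IACS-70654 points of Chil1 and Chil5 lie below the others in the neutrophil classes.

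In neutrophil precursors, 3 of the 4 genes were lower with IACS-70654 than with vehicle, in the contrast that chose them. Chit1 had 3 and 5 UMIs with IACS-70654, against 136 and 117 with vehicle and 108 and 120 in WT. In CPM this was 0.240 and 0.309 with IACS-70654, 13.7 and 9.53 with vehicle and 15.3 and 16.8 in WT. The IACS-70654 libraries lay below all 4 others, with a fitted log2 difference from vehicle of -5.58 (SE 0.31). Chil1 was also lowest with IACS-70654, at 17.4 and 17.9 CPM with IACS-70654, 163 and 167 with vehicle and 161 and 134 in WT, a log2 difference of -3.51 (SE 0.08) from vehicle. Chil5 stood at 1.28 and 1.85 CPM with IACS-70654, 4.83 and 4.64 with vehicle and 2.13 and 3.36 in WT, and its log2 difference from vehicle was -1.84 (SE 0.26). Against WT, the log2 differences with IACS-70654 were -5.92 (SE 0.31) for Chit1, -3.20 (SE 0.09) for Chil1 and -0.91 (SE 0.33) for Chil5. Of all genes tested in this class, 23.2% passed the threshold in either direction (adjusted p below 0.01, with a log2 change of more than 0.5 up or down).

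Chil3 in the whole precursor class lay near its level with vehicle and below its level in WT, which is given above. It stood at 1599.7 and 1547 CPM with IACS-70654 and 1408 and 1496 CPM with vehicle, and the fitted log2 difference, scaled between libraries by TMM, was -0.17 (SE 0.06). Without that scaling it was 0.12, so its direction depends on the scaling, which moves the median of all genes by 0.29. Within each of the 2 subclasses Chil3 was higher with IACS-70654. In azurophil-high precursors it stood at 414 and 411 CPM with IACS-70654, 209 and 136 with vehicle and 322 and 237 in WT, a log2 difference from vehicle of 1.17 (SE 0.10). In cycling precursors it stood at 3029 and 2973 CPM with IACS-70654, 1778 and 1812 with vehicle and 2854 and 2832 in WT, a log2 difference of 0.52 (SE 0.03). The groups differed in make-up at the same time. Azurophil-high cells, where Chil3 was lower than in cycling cells in every library, were 49.3% and 50.5% of the precursors with IACS-70654, 22.0% and 18.3% with vehicle and 20.7% and 26.1% in WT.

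The lower levels of Chit1 and Chil1 were seen in both subclasses. In azurophil-high precursors Chit1 stood at 0.293 and 0.111 CPM with IACS-70654 and 14.1 and 11.7 CPM with vehicle, and in cycling precursors at 0.177 and 0.557 and 13.6 and 9.04 CPM. Chil1 stood at 5.13 and 8.55 CPM with IACS-70654 and 36.7 and 27.7 CPM with vehicle in azurophil-high precursors, and at 32.2 and 29.7 and 201 and 199 CPM in cycling precursors. With vehicle, Chil1 was thus higher in cycling than in azurophil-high cells, whereas the Chit1 values of the subclasses overlapped. Chil5 passed the filter on low counts only in cycling precursors. Its log2 difference with IACS-70654 there was -1.29 (SE 0.28) from vehicle and -0.30 (SE 0.36) from WT, smaller than in the whole class.

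**Figure D2:**
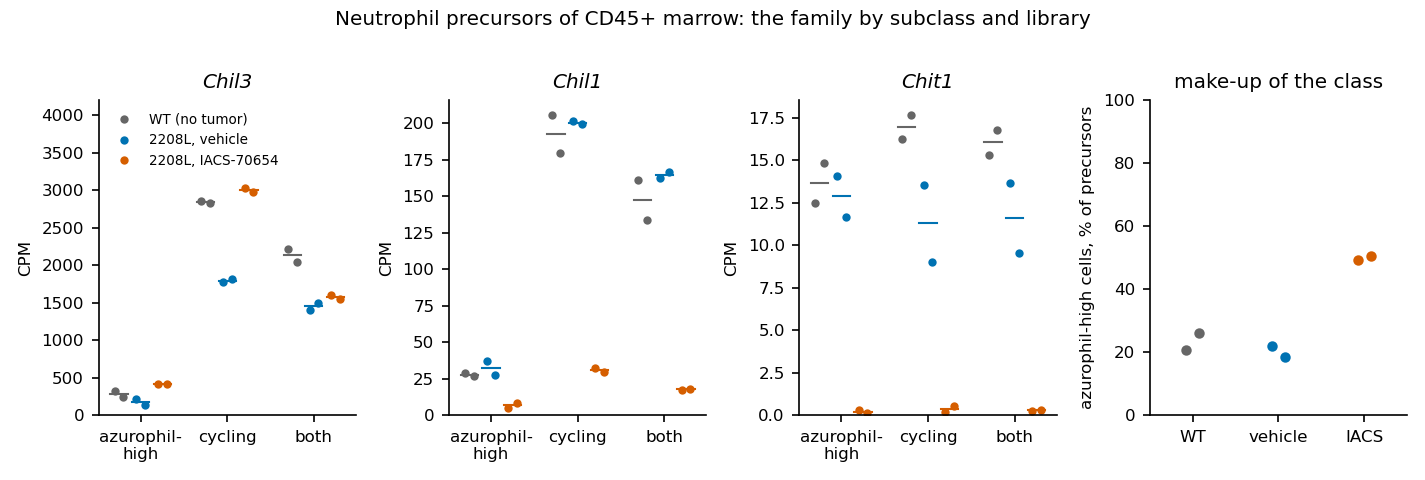
Level (y axis, CPM) of Chil3, Chil1 and Chit1 in azurophil-high precursors, cycling precursors and both together, with 1 point per library and a line at the mean, and the azurophil-high share of precursors (y axis, percent) per library. Chil3 is higher with IACS-70654 than with vehicle in each subclass but nearly level in both together, while the azurophil-high share is 49.3% and 50.5% with IACS-70654 against 22.0% and 18.3% with vehicle.

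Other granule genes of the precursors give the setting of these values. Of the 8 azurophil granule genes, 7 could be tested in the precursors with IACS-70654 against vehicle, and all 7 rose (median log2 change 1.12, against 0.00460 over all genes), where 1566 of all 12139 genes rose and 1256 fell. The adjusted p-values here and below are from the edgeR quasi-likelihood test, adjusted by Benjamini-Hochberg over all genes tested in the class. The genes that rose included Mpo (myeloperoxidase), at a log2 change of 1.32 (SE 0.08, adjusted p = 3.76e-12), and Elane (neutrophil elastase), at 1.70 (SE 0.10, adjusted p = 5.97e-12). Of the 12 genes of the specific and gelatinase granules, 11 fell and 0 rose (median -1.04, beside the same counts over all genes), among them Ltf (lactoferrin), at -1.76 (SE 0.07, adjusted p = 2.30e-15), Camp (cathelicidin), at -1.27 (SE 0.05, adjusted p = 1.66e-14), and Orm1, an acute-phase protein, at -3.99 (SE 0.08, adjusted p = 1.59e-20). Mmp8, a collagenase, was at -0.34 (SE 0.09, adjusted p = 0.00242) and did not pass. The shift of the class to azurophil-high cells moves with both lists, and its part in them was not tested.

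In c-Kit+ BM the family was sparse. Chil3 in GMPs had 44 and 35 UMIs with IACS-70654, 5 and 1 with vehicle and 0 and 0 in WT. This was 3.14 and 4.40 CPM with IACS-70654 and 0.324 and 0.167 CPM with vehicle, and 3 UMIs, the limit that a count of 0 allows, would be 0.960 and 1.43 CPM in the WT libraries. The exact 95% Poisson intervals, which cover counting error only, were 2.28 to 4.21 and 3.07 to 6.12 CPM with IACS-70654 and 0.105 to 0.757 and 0.00423 to 0.931 CPM with vehicle. The fitted log2 difference was 3.55 (SE 0.46), in the contrast that chose the gene, which passed the filter on low counts only through the IACS-70654 libraries, and in which 7.3% of the genes tested passed. These UMIs came from 29 of 1214 and 22 of 704 GMPs with IACS-70654, with up to 11 in 1 cell. The GMP class as built here also takes in neutrophil-committed progenitors. The cluster nearest to those, led by S100a9 and Elane, held 35 and 26 of these UMIs. The level lay far below that of Chil3 in precursors of CD45+ BM, and erythroid progenitors, which should lack the gene, had 0 to 3 UMIs per library.

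Monocyte progenitors are a class that the choice of genes did not use. Chil3 had 30 and 13 UMIs with IACS-70654, 13 and 4 with vehicle and 2 and 4 in WT. This was 3.24 and 2.47 CPM with IACS-70654, 0.674 and 0.495 with vehicle and 0.300 and 0.818 in WT. The IACS-70654 libraries lay above all others. The gene passed the filter on low counts only through them, so it is described here with no test, as in GMPs. The fitted log2 difference from vehicle was 2.20 (SE 0.39), and without IACS-70654 replicate 1 it was 1.95. Chit1 in GMPs had 1 and 1 UMIs with IACS-70654, 11 and 4 with vehicle and 2 and 1 in WT, too few for the filter of the test. Chil1 had 0 to 9 UMIs per class and library, and Chil5 had 0 UMIs in the GMPs of all 6 libraries, where 3 UMIs would be 0.195 to 1.43 CPM. Dendritic progenitors had Chil5 in vehicle replicate 1, with 4 UMIs in 24 cells, and WT replicate 2 had 1 UMI in 12 cells. In no other library than vehicle replicate 1 were there 20 cells of that class.

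**Figure D3:**
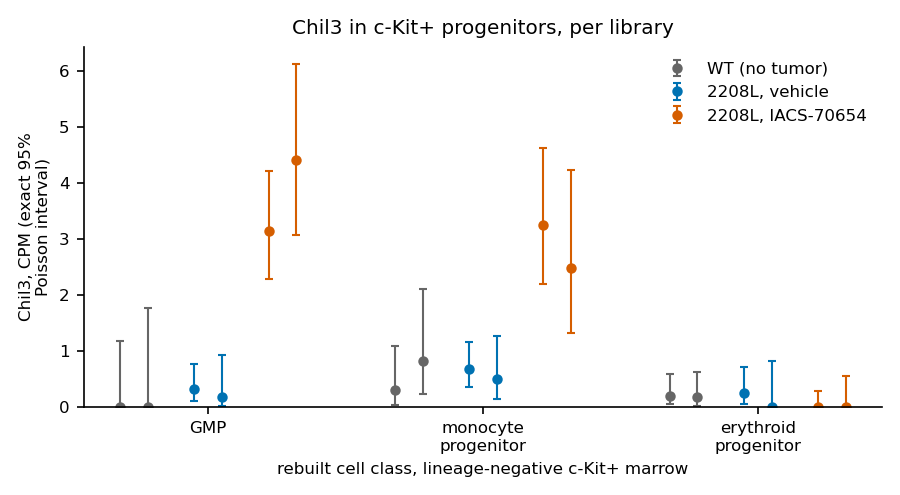
Level of Chil3 (y axis, CPM) in 3 classes of c-Kit+ BM (x axis), with 1 point per library, exact 95% Poisson intervals as bars, and colors for WT, vehicle and IACS-70654. The IACS-70654 libraries stand at 3.14 and 4.40 CPM in GMPs and 3.24 and 2.47 CPM in monocyte progenitors, above all others, and erythroid progenitors lie near 0 in every group.

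The fall of Chil1 and Chil5 with IACS-70654 extended to immature and mature neutrophils, which the choice of genes did not use. Chil1 in immature neutrophils stood at 128 and 131 CPM with IACS-70654 against 304 and 311 with vehicle and 302 and 285 in WT, and fell with a log2 change of -1.49 (SE 0.04, adjusted p = 2.17e-55) against vehicle. In mature neutrophils it stood at 125 and 129 CPM with IACS-70654, 315 and 324 with vehicle and 236 and 249 in WT, with a log2 change of -1.64 (SE 0.04, adjusted p = 2.04e-47). Chil5 in immature neutrophils stood at 23.8 and 21.6 CPM with IACS-70654, 40.6 and 42.2 with vehicle and 58.1 and 46.4 in WT, a log2 change of -1.12 (SE 0.09, adjusted p = 2.15e-20) against vehicle. In mature neutrophils it stood at 8.55 and 9.66 CPM with IACS-70654, 29.2 and 32.5 with vehicle and 25.3 and 26.3 in WT, a log2 change of -2.07 (SE 0.13, adjusted p = 1.41e-23). The IACS-70654 libraries lay below both other groups in these values. This order is a description only, as the share of all genes that did so was not counted. Of all genes tested, 14.6% were called in immature and 20.6% in mature neutrophils. Chit1 had 0 to 9 UMIs per library in these classes and did not pass the filter.

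Chil3 in immature neutrophils stood at 1244 and 1261 CPM with IACS-70654, 984 and 1064 with vehicle and 1305 and 1385 in WT. Its log2 change against vehicle was 0.044 (SE 0.03, adjusted p = 0.217), and without scaling between libraries, which moves the median of all genes by 0.25, it was 0.29. In mature neutrophils, where the share of cells with a UMI lay at background, it stood at 75.0 and 74.9 CPM with IACS-70654, 91.9 and 93.7 with vehicle and 78.9 and 83.9 in WT, and the log2 change of -0.62 (SE 0.06, adjusted p = 1.85e-15) passed the test. The 2 IACS-70654 libraries lay below vehicle and just below WT. That call rests on where the class was cut, and it was also lost without scaling (-0.31). With coarser clusters the change was 1.24, with finer clusters -0.21, and with immature and mature neutrophils in 1 class 0.48. In that joint class the changes were -1.53 for Chil1 and -1.25 for Chil5.

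Different clusters held the neutrophils of different groups, which bears on these comparisons. The immature cluster led by Stfa3 and Retnlg held 952 and 1203 cells of the IACS-70654 libraries and 21 and 30 of the vehicle libraries, and the one led by Ltf and Ly6g held 42 and 46 with IACS-70654 and 568 and 638 with vehicle. The mature cluster led by Wfdc17 and Stfa2 held 1198 and 1483 cells with IACS-70654 and 29 and 29 with vehicle, whereas the one led by Wfdc17 and Prr5l held 35 and 37 with IACS-70654 and 1381 and 1675 with vehicle. Most mature WT neutrophils were in a cluster led by Ccl6 and Retnlg (1063 and 1023 cells). Precursor clusters were shared by all groups. The part of this split in the changes was not tested. Chil1 and Chil5 were lower with IACS-70654 in both classes, but the split lies within each class, so this cannot decide its part.

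**Figure D4:**
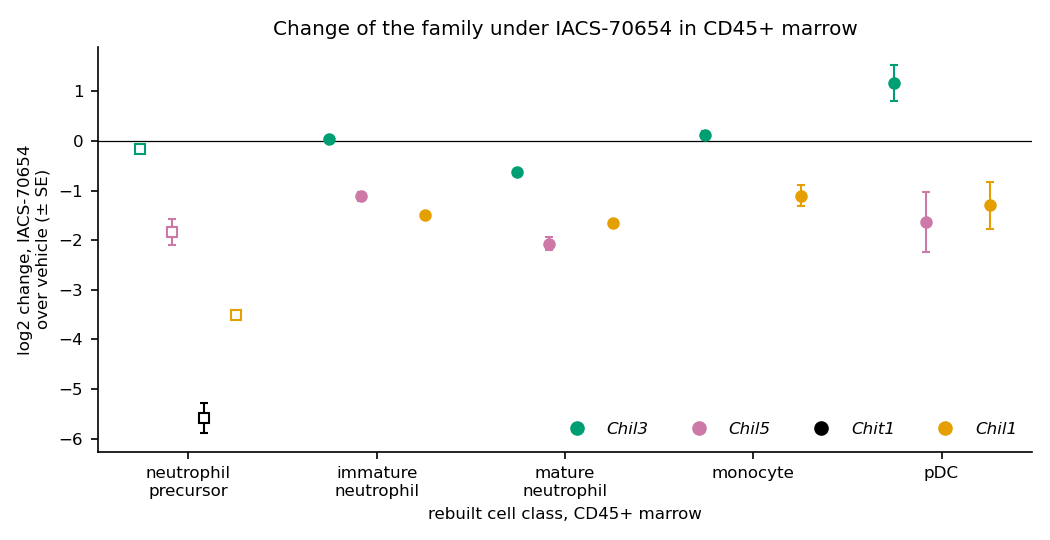
Fitted log2 change with IACS-70654 against vehicle (y axis, bars ± SE) of each gene in 5 classes of CD45+ BM (x axis). Open squares mark the precursors, where the genes were chosen and no test was made. Filled circles mark the other classes, which were tested except for Chil5 in pDCs. Chil1 lies below 0 in all 5 classes (from -3.51 (SE 0.08) in precursors to -1.11 (SE 0.21) in monocytes, where its share of cells lay at background), and Chil3 lies near 0 in precursors (where its sign turns without scaling between libraries), immature neutrophils and monocytes.

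Among the other classes, monocytes held Chil3 at 357 and 365 CPM with IACS-70654, 341 and 323 with vehicle and 323 and 223 in WT, and the log2 change against vehicle was 0.13 (SE 0.08, adjusted p = 0.287). WT replicate 2 was the lowest of the 6 libraries, and the other 5 lay close. Chil1 in monocytes stood at 7.70 and 8.68 CPM with IACS-70654, 22.3 and 13.5 with vehicle and 10.7 and 13.2 in WT, with a log2 change of -1.11 (SE 0.21, adjusted p = 2.76e-04) that passed the test, where 5.9% of all genes were called. Without vehicle replicate 1, its highest library, the change was -0.69 (adjusted p = 0.0821). The share of monocytes with a Chil1 UMI, thinned to equal depth, was 0.568 to 3.11%, within the 0 to 4.92% of B cells, so it lay at background and the change is not read as one of monocytes. The summed neutrophil markers in monocytes were 4026 and 4734 CPM with IACS-70654, 5508 and 4430.2 with vehicle and 4550.4 and 4102 in WT, and their part in the change was not tested. In pDCs the log2 changes were 1.17 (SE 0.35, adjusted p = 0.0422) for Chil3 and -1.30 (SE 0.48, adjusted p = 0.102) for Chil1. By edgeR 0 of these 2 genes passed where 4.28% of all genes did, with 2 at an unadjusted p under 0.05 and 0 called by DESeq2. Chil3 stood at 115 and 234 CPM with IACS-70654, 47.3 and 107 with vehicle and 95.9 and 28.1 in WT, with IACS-70654 replicate 1 close to vehicle replicate 2. A single cell held 125 of the 250 Chil3 UMIs in IACS-70654 replicate 2, 46 of 70 in vehicle replicate 2 and 60 of 101 in WT replicate 1. The summed neutrophil markers in pDCs were 5478 and 8677 CPM with IACS-70654, 6901 and 6517 with vehicle and 5358 and 2722 in WT. Per 100 marker UMIs pDCs had 0.685 to 2.70 Chil3 UMIs and B cells 0.807 to 1.97, ranges that overlap, so Chil3 in pDCs is not read as expression of these cells. Leaving out 1 library at a time moved the Chil3 change from 0.52 (without IACS-70654 replicate 2) to 1.91 (without vehicle replicate 2, adjusted p = 0.00871), and it also passed without IACS-70654 replicate 1 (1.57, adjusted p = 0.00749). With no filter on low counts it was 1.18 and passed (adjusted p = 4.63e-08 by edgeR). The Chil1 change was -0.30 without vehicle replicate 1. Chil5 in pDCs passed the filter on low counts only through the vehicle libraries and is given with no test, at 4 and 5 UMIs with IACS-70654 and 9 and 9 with vehicle.

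T, NK and B cells should lack the family. In T or NK cells Chil3 had 8 and 4 UMIs with IACS-70654, 100 and 52 with vehicle and 150 and 44 in WT. In CPM it stood at 52.8 and 26.0 with IACS-70654, 542 and 334 with vehicle and 217 and 103 in WT. The WT libraries, which are no part of the contrast with vehicle, carried the gene past the filter on low counts, and its log2 change against vehicle was -3.56 (SE 0.48, adjusted p = 8.36e-04), where 0.475% of all genes were called. The summed level of neutrophil marker genes in the same cells was 3587 and 2393 CPM with IACS-70654, 26134 and 16281 with vehicle and 10114 and 4902 in WT, the same order of groups as for Chil3, and its part in the change was not tested. In vehicle replicate 1, 68 of the 100 UMIs came from 1 of 22 cells. In B cells the log2 changes were 0.61 (SE 0.39, adjusted p = 0.387) for Chil3 and -1.22 (SE 0.35, adjusted p = 0.0271) for Chil1. Leaving out 1 library at a time gave 0.24 (without vehicle replicate 1) to 1.15 (without vehicle replicate 2) for Chil3, with 0.41 without IACS-70654 replicate 1, and -1.58 (without IACS-70654 replicate 1) to -0.76 (without IACS-70654 replicate 2) for Chil1. By edgeR 0 of the 2 passed where 6.75% of all genes did, with 1 at an unadjusted p under 0.05 and 0 called by DESeq2. The summed neutrophil markers in B cells were 15065 and 8642 CPM with IACS-70654, 11367 and 11908 with vehicle and 6373 and 10248 in WT. Neither gene followed this order of libraries in full. For Chil3 the highest library (IACS-70654 replicate 1) and the lowest (WT replicate 1) were those of the markers. The B cell with most Chil3 UMIs held 42 of 57 and 33 of 73 with IACS-70654. With vehicle such a cell held 13 of 40 and 34 of 92, and in WT 19 of 148 and 46 of 386. The part of the markers in the changes was not tested. As B cells and T or NK cells served as the background for the other classes, these values are not read as expression.

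Tumor-bearing mice given vehicle were compared with untreated WT mice to see how the genes differ with a tumor. Tumor implantation and dosing with vehicle also set these groups apart and cannot be told apart from the tumor. This comparison shares the vehicle libraries with the contrast above. In precursors, Chil3 stood at 1408 and 1496 CPM with a tumor and 2221 and 2048 without, with no overlap. Its log2 change of -0.41 (SE 0.06, adjusted p = 2.67e-05) was under the threshold of 0.5 in size, and without scaling between libraries, which moves the median of all genes by -0.16, it was -0.56 and passed. In both subclasses it passed, with a log2 change of -0.64 (SE 0.12, adjusted p = 1.75e-04) in azurophil-high precursors, where 1.88% of all genes were called, and of -0.52 (SE 0.03, adjusted p = 4.41e-18) in cycling precursors, where 3.55% were. With IACS-70654 the level in the precursors as a whole lay below that of WT. In cycling precursors the level with IACS-70654 (3029 and 2973 CPM) lay beside that of WT (2854 and 2832 CPM), with a log2 difference of 0.0067 (SE 0.03). In azurophil-high precursors it stood at 414 and 411 CPM with IACS-70654 and 322 and 237 CPM in WT, a log2 difference of 0.53 (SE 0.10). The other 3 genes in precursors had log2 changes of 0.93 (SE 0.28, adjusted p = 0.0258) for Chil5, -0.34 (SE 0.16, adjusted p = 0.15) for Chit1 and 0.31 (SE 0.07, adjusted p = 0.00221) for Chil1. That of Chit1 was -0.60 without vehicle replicate 1 and -0.083 without vehicle replicate 2. For Chil1, leaving out 1 library at a time gave 0.19 to 0.45. By edgeR 0 of the 4 genes were called in the precursors as a whole (all 4 at an unadjusted p under 0.05, 0 by DESeq2), against 3.89% of all genes.

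In mature neutrophils the log2 changes of vehicle against WT were 0.498 (SE 0.04, adjusted p = 1.69e-17) for Chil1, 0.36 (SE 0.12, adjusted p = 0.0152) for Chil5 and 0.29 (SE 0.07, adjusted p = 3.19e-04) for Chil3. The Chil3 change was -0.031 with coarser clusters and -0.43 with both neutrophil classes together. Chil1 therefore stood just under the threshold of 0.5, at 315 and 324 CPM with a tumor and 236 and 249 without, and passed it under several alternatives, at up to 0.54 with no filter on low counts. In immature neutrophils the changes were 0.32 (SE 0.04, adjusted p = 8.48e-11) for Chil1, -0.13 (SE 0.03, adjusted p = 2.08e-04) for Chil3 and -0.083 (SE 0.09, adjusted p = 0.576) for Chil5. By edgeR 0 of 3 genes were called in either class (3 in mature and 2 in immature neutrophils at an unadjusted p under 0.05, 0 by DESeq2), against 8.47% and 6.03% of all genes. In monocytes Chil3 was at 0.28 (SE 0.09, adjusted p = 0.0576) and Chil1 at 0.57 (SE 0.22, adjusted p = 0.181), with 0 of 2 called by edgeR or DESeq2 and 2 at an unadjusted p under 0.05, against 1.03% of all genes. Without WT replicate 1 the Chil3 change in monocytes was 0.56 (adjusted p = 2.65e-08), past the threshold. The Chil1 change there was 0.15 without vehicle replicate 1 and 0.90 without vehicle replicate 2. In B cells Chil1 passed at 1.18 (SE 0.24, adjusted p = 0.00982), where 0.902% of genes did, but not by DESeq2 or in 4 of the 6 fits that leave out 1 library (those without WT replicate 1, WT replicate 2, vehicle replicate 1 or vehicle replicate 2), where the change was 1.02 to 1.30.

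Of the 6 other glycosyl hydrolase 18 genes listed, Chil4, Chil6 and Chia1 had 23, 17 and 6 UMIs in all CD45+ cells and could not be tested. Ovgp1 (oviductin), 29495 bases from Chil5 on chromosome 3, was lower with IACS-70654 in all 3 neutrophil classes. It stood at 41.0 and 40.4 CPM in mature neutrophils with IACS-70654, 72.5 and 71.2 with vehicle and 109 and 107 in WT. Its log2 change against vehicle was -1.28 (SE 0.12, adjusted p = 5.40e-09) in precursors, -0.90 (SE 0.08, adjusted p = 6.47e-18) in immature and -1.13 (SE 0.07, adjusted p = 1.47e-23) in mature neutrophils, and in WT it was higher than in both tumor-bearing groups in mature neutrophils. In GENCODE vM21 Ovgp1 shares 10890 bases with the noncoding gene Gm42890 on the same strand, so its reads may not all be its own. Ctbs (chitobiase), a lysosomal enzyme, and Chid1, a chitinase-domain protein, were not called in any neutrophil class, with log2 changes in mature neutrophils of -0.048 (SE 0.11, adjusted p = 0.741) and 0.98 (SE 0.35, adjusted p = 0.0181). In GMPs, Ctbs rose with a log2 change of 0.56 (SE 0.17, adjusted p = 0.00535). Of the 3 receptor genes, Il13ra2 and Fibcd1 had 2 and 1 UMIs in CD45+ cells. Tmem219, which encodes a partner of the Chil1 receptor, was at 0.40 (SE 0.08, adjusted p = 4.28e-05) in mature neutrophils, under the size threshold.

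In immature and mature neutrophils the specific and gelatinase granule genes, of which all 12 were tested, had 3 and 7 that fell and 0 that rose with IACS-70654, where 668 of all 10785 and 1046 of all 10805 genes fell. The medians of the list were -0.40 and -0.57, against 0.00350 and 0.00547 over all genes. The change of Chil1, whose protein is stored in such granules, was -1.64 (SE 0.04) in mature neutrophils. Of the myeloid transcription factor list, 2 of 9 rose in precursors and 0 fell, with a median of -0.26 and a share called near the 23.2% of all genes. The 2 were Cebpa at 0.96 (SE 0.11, adjusted p = 2.78e-07) and Gfi1 at 1.01 (SE 0.07, adjusted p = 3.24e-11). Cebpe, a factor of specific granule formation, was at -0.48 (SE 0.05, adjusted p = 5.50e-08). In monocytes, 3 of 4 tested genes of alternative macrophage activation rose and 0 fell (median 0.90), where 5.9% of all genes were called. Of the same list 1 of 5 rose and 2 fell in monocyte progenitors (median -0.87), and 1 of 4 rose and 1 fell in GMPs (median -0.50), where 5.98% and 7.3% of all genes were called. In GMPs 1 of 7 azurophil genes and 3 of 7 specific granule genes fell and 0 rose (medians -0.23 and -0.47, against 0.00694 over all genes), where 476 of all 11905 genes fell and 393 rose.

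The 2208L tumors had 1 library per condition, so these values have no replicate check. Intervals are exact Poisson intervals for levels and exact conditional binomial intervals for ratios, and cover counting error only. Chil1 marked tumor-associated neutrophils (TANs). It stood at 196 CPM (122 UMIs, 95% interval 163 to 234) with vehicle and 13.4 CPM (5 UMIs, 95% interval 4.34 to 31.2) with IACS-70654, a ratio of 0.0681 (95% interval 0.0217 to 0.163). It stood at 244 CPM (195 UMIs, 95% interval 211 to 281) with anti-PD1 and 14.8 CPM (6 UMIs, 95% interval 5.43 to 32.2) with both agents, a ratio of 0.0607 (95% interval 0.0220 to 0.135) to anti-PD1 alone. The 2 libraries with IACS-70654 thus lay far below the 2 without it. Anti-PD1 alone against vehicle gave a ratio of 1.24 (95% interval 0.987 to 1.57). In T or NK cells, which should lack the gene, the number of Chil1 UMIs was 1 with vehicle, 1 with IACS-70654, 8 with anti-PD1 (5 of them in 1 cell) and 0 with both.

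Tumor cells held Chil1 UMIs at a low level, at 9.18 CPM (54 UMIs, 95% interval 6.90 to 12.0) with vehicle, 1.88 CPM (21 UMIs, 95% interval 1.17 to 2.88) with IACS-70654, 9.41 CPM (76 UMIs, 95% interval 7.41 to 11.8) with anti-PD1 and 2.39 CPM (41 UMIs, 95% interval 1.71 to 3.24) with both. The ratios were 0.205 (95% interval 0.118 to 0.345) and 0.254 (95% interval 0.169 to 0.376). These UMIs came from 23 of 373 tumor cells with vehicle and 14 of 742 with IACS-70654. T or NK cells stood at 3.16 CPM (1 UMI, 95% interval 0.0800 to 17.6) with vehicle, 1.30 CPM (1 UMI, 95% interval 0.0329 to 7.24) with IACS-70654 and 21.0 CPM (8 UMIs, 95% interval 9.06 to 41.4) with anti-PD1. On so few UMIs they could not set Chil1 in tumor cells apart from background, and it is not read as expression of tumor cells. Tumor macrophages, given under other observations, held less Chil1 than tumor cells. The intervals of the 2 classes lay apart with vehicle, anti-PD1 and both agents, and overlapped with IACS-70654. Chit1, nearly limited to neutrophil precursors in BM, was found in tumor cells, at 3.06 CPM (18 UMIs, 95% interval 1.81 to 4.84) with vehicle and 1.35 CPM (15 UMIs, 95% interval 0.753 to 2.22) with IACS-70654, a ratio of 0.439 (95% interval 0.206 to 0.923). With anti-PD1 it was 4.58 CPM (37 UMIs, 95% interval 3.22 to 6.31) and with both agents 3.09 CPM (53 UMIs, 95% interval 2.31 to 4.04), a ratio of 0.675 (95% interval 0.435 to 1.06), whose interval includes 1. Every other named class of the tumors had at most 1 Chit1 UMI. T or NK cells (1 UMI with anti-PD1, of about 381143 in all) were too shallow to set a background. The deeper tumor macrophages had 0 of about 5370960 UMIs with vehicle and 0 of about 17261900 with IACS-70654. They had 0 of about 3630580 with anti-PD1 and 1 of about 15245300 with both agents.

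Chil3 was highest in tumor monocytes in both tumors without IACS-70654. It stood at 80.0 CPM (47 UMIs, 95% interval 58.8 to 106) with vehicle and 14.5 CPM (57 UMIs, 95% interval 11.0 to 18.8) with IACS-70654, a ratio of 0.181 (95% interval 0.121 to 0.272). With anti-PD1 it stood at 96.4 CPM (73 UMIs, 95% interval 75.5 to 121) and with both agents at 11.3 CPM (49 UMIs, 95% interval 8.36 to 14.9), a ratio of 0.117 (95% interval 0.0799 to 0.171). This class held 146 cells with vehicle and 757 with IACS-70654. Cells with a Chil3 UMI numbered 25 and 21. In BM monocytes Chil3 was at 357 and 365 CPM with IACS-70654 and 341 and 323 with vehicle, from other libraries. In TANs it had 0 UMIs with vehicle and stood at 24.0 CPM (9 UMIs, 95% interval 11.0 to 45.6) with IACS-70654, 16.3 CPM (13 UMIs, 95% interval 8.66 to 27.8) with anti-PD1 (12 UMIs in 1 cell) and 24.7 CPM (10 UMIs, 95% interval 11.8 to 45.4) with both. With IACS-70654 the intervals of TANs and monocytes overlapped in both tumors. In tumor macrophages it stood at 3.72 CPM (20 UMIs, 95% interval 2.27 to 5.75) with vehicle and 0.406 CPM (7 UMIs, 95% interval 0.163 to 0.836) with IACS-70654. T or NK cells had 1 Chil3 UMI with vehicle and 0 with IACS-70654, too few to set macrophages apart from background. Chil3 in macrophages is therefore not read as their expression. Chil5 had at most 2 UMIs in any class of any tumor.

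**Figure D5:**
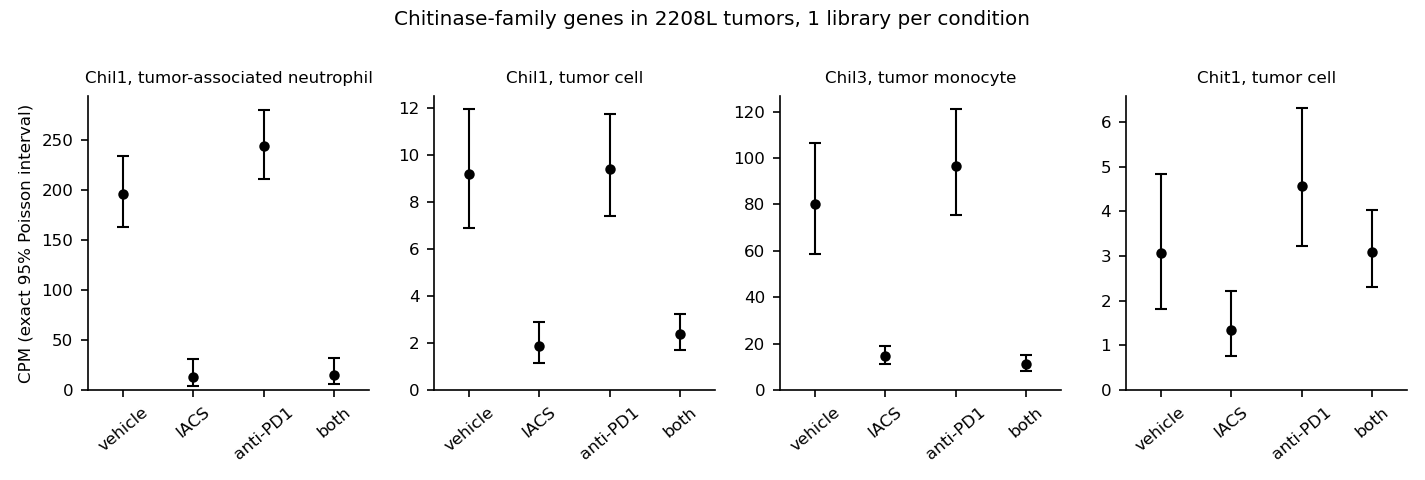
Level (y axis, CPM, exact 95% Poisson intervals as bars) of Chil1 in TANs and in tumor cells, Chil3 in tumor monocytes and Chit1 in tumor cells, for each of the 4 tumor libraries (x axis). In the first 3 panels both libraries with IACS-70654 lie below both without it, and for Chit1 the library with both agents (3.09 CPM) lies at the level of vehicle (3.06 CPM).

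The genes most alike to each member across the 54 class-by-library sums of CD45+ BM (9 classes in 6 libraries, Pearson r of log2 CPM + 1) are given as a description. The sums share libraries, and the values have no p. Chil3 lay closest to Cebpe (r = 0.90), which encodes a transcription factor of granulocyte maturation, Camp (r = 0.90) and Prom1 (r = 0.86). Chil1 lay closest to Ankrd22 (r = 0.94), Ly6g (r = 0.93), the neutrophil surface antigen, and AA467197 (r = 0.93), with Padi4 (r = 0.91), the enzyme of histone citrullination, also among the 5. Chil5 lay closest to R3hdm4 (r = 0.82), Ly6g (r = 0.80) and St3gal5 (r = 0.77). Chit1 lay closest to 1810037I17Rik (r = 0.69), Vcam1 (r = 0.65) and Hmgn2 (r = 0.64), with lower values of r.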

How the data were processed

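Single-cell 3' RNA libraries were made with CellPlex tags. The deposited matrices hold UMI counts per gene and cell, which the authors made with Cell Ranger (7.1.0 in the headers of the tumor matrices, 7.2.0 in those of BM). Seurat and mm10 are named in the submitters' processing notes. Cells were kept if they had over 200 genes, under 6000 genes and no more than 10% of UMIs from mitochondria. They were clustered within each sort (scanpy 1.11.5, Leiden resolution 1, 0.8 for neutrophils) and named from listed markers, so class names are rebuilt. Doublets (scrublet, 0 to 1.66% of cells called per library) were kept in the analysis reported, and 1 alternative left them out. A call rate under 0.5% means that the caller had not worked there, and the highest 5% of scores were left out instead.

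UMI counts were summed per class and library and tested with edgeR 4.0.16 (quasi-likelihood test, filterByExpr, TMM, 6 libraries per sort, Benjamini-Hochberg over all genes of a class). A call needed an adjusted p below 0.01 together with a log2 change of more than 0.5 up or down, and libraries with under 20 cells of a class were left out. The fit was tested on simulated data with 200 changed genes. Shares were computed after thinning to 1000 UMIs per cell in CD45+ cells. Alternatives changed the size factors, tool (DESeq2 1.42.0), filters, replicate block, libraries, doublets and clustering, and 2 of them (no scaling between libraries, both neutrophil classes together) were added after the data were seen. The 4 genes and all lists were chosen with earlier results of these data known. Named genes were the 4 members, the listed genes and the 5 genes most alike to each member. Depth is given with the cell counts.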

Additional observations from a re-analysis of the deposited data

Results flagged for a closer look

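Chil3 in CD45+ BM lay higher with IACS-70654 than with vehicle in some classes and lower in others. The classes named here were picked because both IACS-70654 libraries lay on 1 side of both vehicle libraries in CPM, before scaling. The fitted change also had to point the same way, so this separation is no result. In B cells IACS-70654 replicate 2 (170.2 CPM) and vehicle replicate 2 (170.2 CPM) were nearly level. The log2 change was 0.61 (SE 0.39) in B cells, 0.044 (SE 0.03) in immature neutrophils, 0.13 (SE 0.08) in monocytes and 1.17 (SE 0.35) in pDCs, against -3.56 (SE 0.48) in T or NK cells and -0.62 (SE 0.06) in mature neutrophils. The difference between these classes was not tested. Of the 6 changes, those in T or NK cells and mature neutrophils passed the threshold, where 0.475% and 20.6% of all genes did. Of the 4 upward ones 0 passed, in classes where 4.28% (pDCs) to 14.6% (immature neutrophils) of all genes did. In T or NK cells the neutrophil marker genes lay in the same order as Chil3, and in mature neutrophils the sign turned with coarser clusters.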

How the results depend on the processing

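The falls of Chil1 and Chil5 with IACS-70654 in immature and mature neutrophils kept their direction and stayed past the threshold under every alternative run. All values here are log2 changes unless named otherwise, and the causes of the shifts were not tested. For IACS-70654 against vehicle, Chil3 in mature neutrophils was 1.24 at low and -0.21 at high clustering resolution, -0.31 without scaling and 0.48 with both neutrophil classes together. Chil3 in immature neutrophils was 0.92 at low resolution. In precursors Chil3 was 0.12 and Chil1 -3.22 without scaling, and Chil1 -3.62 without doublets. Chil3 in GMPs was 2.66 at high resolution, and in CD45+ progenitors -0.35 without doublets.

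For vehicle against WT, Chil3 in mature neutrophils was -0.031 at low resolution and -0.43 with both classes together, where Chil5 was 0.0065. Chil1 in mature neutrophils passed at 0.54 with no filter, 0.50 with 4 libraries, 0.50 without doublets, and 0.53 and 0.52 at low and high resolution. In precursors Chil3 passed at -0.56 without scaling, and Chil5 at 0.94 with no filter. In classes with few UMIs the sign turned: Chil3 in B cells was -0.092 at low resolution and in monocyte progenitors -0.25 at high resolution, Chil3 in progenitors -0.0024 with no filter, -0.30 without doublets and -0.50 at high resolution, and Chil1 there -0.040 without doublets.

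Leaving out 1 library at a time gave, for IACS-70654 against vehicle, ranges for Chil3 of -0.0048 to 0.094 in immature neutrophils, 3.35 to 4.24 in GMPs (highest without vehicle replicate 1), 1.95 to 2.5 in monocyte progenitors, -0.15 to 1.17 in basophils and -0.50 to 0.49 in progenitors, and for Chil1 of -1.44 to -0.69 in monocytes and -0.98 to 0.18 in progenitors. For vehicle against WT the ranges for Chil3 were 0.038 to 0.56 in monocytes, -0.51 to 0.79 in B cells, -0.36 to 1.46 in pDCs, -0.13 to 0.25 in progenitors and -0.42 to 0.97 in monocyte progenitors. They were 0.47 to 0.54 for Chil1 in mature neutrophils, -0.41 to 0.56 for Chil1 in progenitors and -0.23 to 0.10 for Chil5 in immature neutrophils.

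Replicate numbers are all that the libraries of different groups share, so the fit with the replicate number as a block is no paired design. With that block 44 changes kept their direction and, where the threshold was applied, their side of it. For IACS-70654 against vehicle in precursors and GMPs no threshold was applied. There the measure was a move smaller than the spread between libraries. Chil1 in B cells, vehicle against WT, no longer passed (1.17, adjusted p = 0.0396), and Chil3 in T or NK cells passed (1.49).

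In the vehicle libraries the share of cells with a UMI before thinning, and the share with 2 or more UMIs after thinning, were 88.8% and 36.9% for Chil3 and 12.9% and 0.0668% for Chit1 in precursors, and 9.99% and 0.0188% for Chil5 and 58.5% and 4.42% for Chil1 in mature neutrophils. Depth limits Chil3 in c-Kit+ cells, Chit1 outside precursors and all tumor values, which rest on few UMIs.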

Other observations

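Basophils and CD45+ progenitors held Chil3 at 15.4 to 44.3 and 54.9 to 108 CPM over the 6 libraries. The fitted log2 changes with IACS-70654 against vehicle were 0.63 (SE 0.78, adjusted p = 0.840) and 0.10 (SE 0.27, adjusted p = 0.936) by edgeR. Tumor macrophages held Chil1 at 3.54 CPM (19 UMIs, 95% interval 2.13 to 5.52) with vehicle, 0.869 CPM (15 UMIs, 95% interval 0.486 to 1.43) with IACS-70654, 3.58 CPM (13 UMIs, 95% interval 1.91 to 6.12) with anti-PD1 and 0.853 CPM (13 UMIs, 95% interval 0.454 to 1.46) with both. The ratios were 0.246 (95% interval 0.116 to 0.510) for IACS-70654 to vehicle and 0.238 (95% interval 0.102 to 0.558) for both agents to anti-PD1, from 1 library each. With vehicle, T or NK cells stood at 3.16 CPM (1 UMI, 95% interval 0.0800 to 17.6), so the level in macrophages is not above background and is not read as their expression. Of the 18 Chil3 UMIs in tumor cells given both agents, 17 came from 1 cell. Across 58 class-by-library sums of c-Kit+ BM, the gene most alike to Chil3 was S100a8 (r = 0.62) and the one most alike to Chit1 was Wfdc21 (r = 0.68), given as a description of sums with few UMIs.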
